A study of Mus musculus with 6 samples.

Results

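The 8 genes described here, Nfatc1, Npr3, Plvap, Cdh11, Tmem100, Gata5, Foxc1 and Cgnl1, form a set named for endocardial identity. The set is not confined to endocardium, since Cdh11 and Foxc1 are also genes of the valve cushion mesenchyme. The 8 genes were taken by symbol from the 45792 genes counted in whole mouse hearts at embryonic day 13.5. All 8 were found and passed the filter on low counts. The study sequenced 3 control-labelled hearts, given as wild-type, and 3 mutant-labelled hearts of the genotype Tie2Cre INO80 flox/flox, all labelled C57BL/6. The paper instead describes mixed backgrounds, a cross of Cre-carrying Ino80 flox/+ males to Ino80 fl/fl females, and controls of every genotype but the mutant, so how the wild-type label relates to that cross is not settled by the sources used here. In the mutant allele exon 6 of Ino80, which encodes the ATPase of a chromatin remodelling complex, is flanked by loxP sites, and Tie2Cre drives recombination in endothelial cells, endocardium included, and in their descendants. Cardiomyocytes, which do not use this promoter, keep the gene.

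The endocardium is the endothelial layer that lines the heart chambers. It sends signals to the trabecular muscle, gives rise by transition to the mesenchyme of the valve cushions, and contributes cells to the coronary vessels. It shares the general endothelial genes with those vessels, and is told apart by transcription factors such as Nfatc1, by surface proteins such as Npr3, and by a low level of the capillary genes for fatty acid handling. The comparison addressed here is whether these genes stood at different levels in hearts whose endothelium, by label, lacked Ino80.

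Depth ran from 28948836 to 89675692 counts per heart, and the deepest and the shallowest library were both mutant-labelled. Values below are CPM, that is each count as a rate per TMM-scaled library total, and TMM adjusts that total for the make-up of the library. Ino80 stood at 31.5 ± 1.26 CPM with the control label and at 34.0 ± 2.35 CPM with the mutant label (SD, n = 3 each), so that its count over the whole gene in the whole heart did not tell the genotypes apart, and hearts are named by their labels. Cardiomyocyte markers summed to between 16673 and 21538 CPM in every heart, and all 14 pan-endothelial markers were detected in every heart. Erythroid markers, which are the globin genes and others of red cells, summed for control-labelled replicates 1 to 3 to 6704, 13524 and 30198 CPM, and for mutant-labelled replicates 1 to 3 to 4190, 4551 and 7582 CPM. In whole hearts, fewer cells of a type and less RNA per cell cannot be told apart.

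Of the 8 genes, 7 had a higher mean in mutant-labelled hearts and 1, Tmem100, did not. The median log2 fold change of the 8 was 0.34, beside a median of 0.00 (-0.0017) over the 17125 genes tested. None of the 8 passed an adjusted p of 0.05 with edgeR's quasi-likelihood test, which called 0% of all genes at that threshold. Gata5 and Foxc1 were higher at an unadjusted p under 0.05, where 9.48% of all genes were higher and 9.98% lower, and they were also the members in which every mutant-labelled heart lay above every control-labelled heart, as was so for 14.3% of all genes (12.8% lay wholly below). No member was lower by either rule. Of the 3 control-labelled hearts, replicate 1 stood at or near the level of the mutant-labelled hearts for most members and replicate 2 lay farthest below them. Each heart was left out in turn, and values without replicates 1 and 2 are given because those omissions move the members most. Leaving out the control-labelled heart nearest the mutant-labelled ones enlarges a difference and narrows the control spread by construction, so a call made that way is no added evidence.

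**Figure D1:**
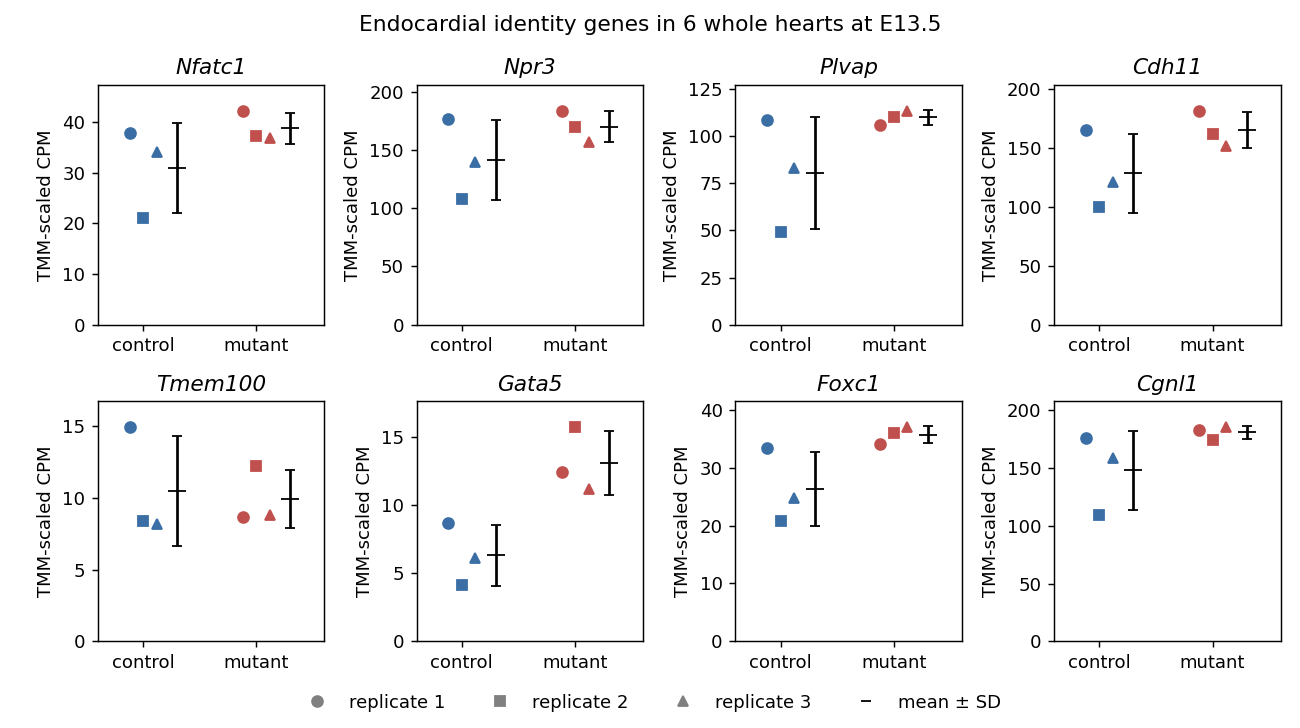
TMM-scaled CPM of each of the 8 genes (y axes, from 0) in the 3 control-labelled hearts (blue) and the 3 mutant-labelled hearts (red), with replicates 1, 2 and 3 as circles, squares and triangles and the mean ± SD of each group in black. Control-labelled replicate 2 was the lowest of the 6 hearts for 7 genes, and the groups are apart for Gata5 and Foxc1 and overlap for the other 6.

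The 3 transcription factors are described with the upstream sequence of the pair whose groups did not overlap. RefSeq's 250 bases before the start of Gata5 and of Foxc1 on GRCm38.p6 are printed 5′ to 3′ on the strand of the gene, since these members carried the clearest separation of the hearts. The windows are chr2:180334680-180334929 (minus strand), of which GENCODE vM21 places the last 20 bases inside Gata5, and chr13:31806396-31806645 (plus strand), of which it places the last 13 inside Foxc1. Capitals mark matches to the letters searched.
Gata5: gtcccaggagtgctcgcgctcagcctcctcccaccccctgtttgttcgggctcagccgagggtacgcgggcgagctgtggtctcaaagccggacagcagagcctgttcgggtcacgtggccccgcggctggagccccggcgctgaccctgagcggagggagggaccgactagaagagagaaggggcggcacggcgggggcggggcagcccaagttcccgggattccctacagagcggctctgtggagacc
Foxc1: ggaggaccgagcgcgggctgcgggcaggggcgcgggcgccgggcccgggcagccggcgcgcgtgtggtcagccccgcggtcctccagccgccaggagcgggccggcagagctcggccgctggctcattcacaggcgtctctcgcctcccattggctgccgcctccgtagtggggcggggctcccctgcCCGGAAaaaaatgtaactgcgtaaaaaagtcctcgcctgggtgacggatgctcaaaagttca

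Both windows were rich in G and C, at 70.0% for Gata5 and 70.8% for Foxc1. The median of 32851 windows of the same length, with chromosome 18 left out, was 52.4%. They held 22 and 29 CpG dinucleotides against a median of 6. Windows were matched for 4 of the 8 members, the others being Npr3 and Cgnl1. Nfatc1 lies on chromosome 18 and so could not be matched. The letters searched on both strands were AGATAA for GATA factors, TGGAAA for NFAT factors, CCGGAA for ETS factors, TGTTTA for forkhead factors, and TTCGCGC and TTGGCGC for E2F factors, and no string contains another. The single match in the 4 windows was CCGGAA in Foxc1, beginning 62 bases before the start, a string present in 12% of all windows. For Npr3 the bases checked past the window were not found in a GENCODE vM21 transcript of the gene. They were found for the other matched members, so the place of the Npr3 window is less certain. The other strings were present in 9.99% (AGATAA), 18.6% (TGGAAA), 12% (TGTTTA), 1.28% (TTCGCGC) and 1.97% (TTGGCGC) of all windows, and their letters were not in these 4.

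Gata5 (ENSMUSG00000015627.5, chromosome 2, 180325133 to 180334699 on GRCm38) encodes a zinc finger factor known from the early endocardium. Whole-heart counts do not show which cells its reads came from, and they need not be endocardium alone. Gata5 was the member with the largest difference. Replicates 1 to 3 of the control-labelled group stood at 8.67, 4.15 and 6.11 CPM, and those of the mutant-labelled group at 12.4, 15.7 and 11.2 CPM. All mutant-labelled values were above all control-labelled values, with a gap between 8.67 and 11.2 CPM. The means were 6.31 ± 2.26 and 13.1 ± 2.35 CPM (SD, n = 3 each), a fold of 2.07 with a 95% confidence interval from 1.39 to 3.09. Its log2 fold change of 1.05 had a standard error (SE) of 0.25 and an adjusted p of 0.104 by edgeR's quasi-likelihood test. An exact two-sided permutation test of the 3 hearts against 3 gave p = 0.1, the smallest that this number of hearts allows.

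The call on Gata5 depended on the analysis. DESeq2, the program used by the study, gave it an adjusted p of 0.0012 at a log2 fold change of 1.05. It was the only member called by DESeq2, which called 2.67% of genes higher and 3.43% lower. It was also called by edgeR when every gene with at least 1 count was tested (adjusted p = 0.0162), a setting that called 0.926% of genes higher. Leaving out control-labelled replicate 1 raised its log2 fold change to 1.35 (adjusted p = 0.0228 from edgeR), and leaving out control-labelled replicate 2, the lowest heart, reduced it to 0.83 (adjusted p = 0.184 from edgeR). Gata5 is a low-abundance gene, with counts from 122 to 1151 per heart. An antisense gene, Gata5os, overlaps it. Gata5os had between 2 and 8 counts in 5 hearts and 51 counts, or 0.55 CPM, in mutant-labelled replicate 1, far below Gata5 in each heart.

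Foxc1 (ENSMUSG00000050295.3, chromosome 13, 31806633 to 31812476) encodes a forkhead factor of endocardium, cushion mesenchyme and outflow tract. Foxc1 was at 33.4, 20.8 and 24.9 CPM with the control label and, with the mutant label, at 34.2, 36.1 and 37.1 CPM. The groups did not overlap, although control-labelled replicate 1 was separated from the nearest mutant-labelled heart by less than 1 CPM. The log2 fold change was 0.44 (SE 0.16, edgeR adjusted p = 0.192), or a fold of 1.35 with a 95% interval from 1.05 to 1.74. An exact two-sided permutation test gave p = 0.1 for the 3 hearts of each group. Without control-labelled replicate 1 the log2 fold change was 0.65 (edgeR adjusted p = 0.0244), and without control-labelled replicate 2 it was 0.30 (edgeR adjusted p = 0.355). No other omission of a heart gave a call.

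Nfatc1 (ENSMUSG00000033016.13, chromosome 18, 80606205 to 80713071) encodes the calcineurin-activated factor that the endocardium needs to build the valves. It stood at 37.8, 21.0 and 34.1 CPM in control-labelled replicates 1 to 3 and at 42.3, 37.2 and 36.9 CPM in mutant-labelled replicates 1 to 3. Control-labelled replicate 1 lay inside the mutant-labelled range, and replicate 2 lay well under all others. The log2 fold change was 0.32 (SE 0.19, edgeR adjusted p = 0.377), with a 95% interval from -0.12 to 0.77. It was 0.50 without control-labelled replicate 1 and 0.11 without replicate 2, and passed in neither fit.

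Plvap (ENSMUSG00000034845.5, chromosome 8, 71497765 to 71511752) encodes the protein of the diaphragms that close endothelial fenestrae and caveolae. It was at 108.79, 49.4 and 83.0 CPM with the control label and at 105.87, 110.3 and 113.5 CPM with the mutant label, so that control-labelled replicate 1 fell inside the mutant-labelled range. The difference on the log2 scale was 0.45 (SE 0.24, edgeR adjusted p = 0.325). Its overlapping neighbour on the other strand, Gtpbp3, stood between 19.6 and 24.5 CPM in the 6 hearts. Whether the counting used strand is not given in the sources used here, so reads in the overlap cannot be assigned.

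Npr3 (ENSMUSG00000022206.6, chromosome 15, 11839896 to 11907287) encodes the receptor that clears natriuretic peptides. Control-labelled hearts stood at 176.5, 107.7 and 139.3 CPM and mutant-labelled hearts at 183.6, 169.8 and 156.5 CPM. The groups overlapped, because control-labelled replicate 1 exceeded mutant-labelled replicates 2 and 3. The log2 fold change was 0.27 (SE 0.16, edgeR adjusted p = 0.385).

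Tmem100 (ENSMUSG00000069763.3, chromosome 11, 90030348 to 90036508) encodes a small membrane protein that in endothelium lies downstream of BMP signals through the receptor ALK1. It was the exception among the 8. Tmem100 was at 14.9, 8.41 and 8.18 CPM with the control label and, with the mutant label, at 8.70, 12.3 and 8.82 CPM, and the highest value of the 6 was in control-labelled replicate 1. The log2 fold change was -0.09 (SE 0.25, edgeR adjusted p = 0.867), with a 95% interval from -0.67 to 0.49, wide enough to hold the value of most other members. Its sign turned without control-labelled replicate 1, at 0.26, and without mutant-labelled replicate 1, at 0.0052.

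The last pair of members encode proteins of cell contacts. Cdh11 (ENSMUSG00000031673.5, chromosome 8, 102632095 to 102785642), a cadherin of mesenchymal and valve cells, was at 164.9, 99.4 and 120.8 CPM in control-labelled and at 181.3, 161.8 and 151.1 CPM in mutant-labelled hearts. The difference on the log2 scale was 0.36 (SE 0.17, edgeR adjusted p = 0.285), and without control-labelled replicate 1 it was 0.58 (edgeR adjusted p = 0.0453), against 0.21 without control-labelled replicate 2 (edgeR adjusted p = 0.525). Cgnl1 (ENSMUSG00000032232.12, chromosome 9, 71626509 to 71771602) encodes paracingulin, a protein on the inner face of cell junctions. It was at 176.1, 109.6 and 158.5 CPM in control-labelled and at 182.9, 174.2 and 185.5 CPM in mutant-labelled hearts, a log2 fold change of 0.29 (SE 0.16, edgeR adjusted p = 0.337). In both genes control-labelled replicate 1 lay inside the mutant-labelled range and replicates 2 and 3 lay under it.

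**Figure D2:**
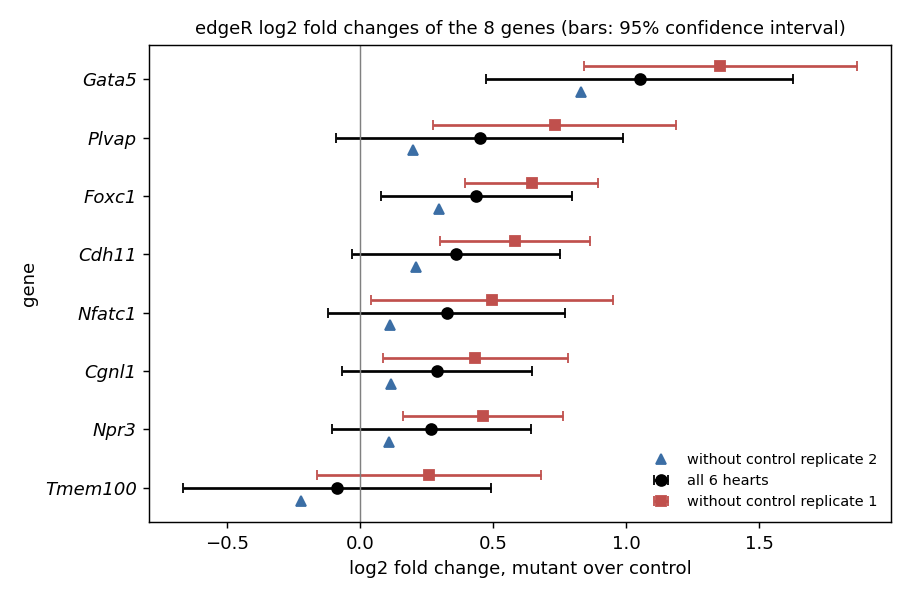
Log2 fold change of mutant-labelled over control-labelled hearts (x axis) for each gene, with all 6 hearts (black, 95% confidence interval), without control-labelled replicate 1 (red, 95% confidence interval) and without control-labelled replicate 2 (blue, value only). Every value moves up without replicate 1 and down without replicate 2, and with all hearts the interval lies above 0 for Gata5 and Foxc1.

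Across the 6 fits that left out 1 heart, 7 members stayed positive. For each of these 7, the lowest value came without control-labelled replicate 2 and the highest without control-labelled replicate 1. The lowest ran from 0.11 for Npr3 to 0.83 for Gata5 and the highest from 0.43 for Cgnl1 to 1.35 for Gata5. The median of the 8 members was 0.54 without control-labelled replicate 1 and 0.16 without control-labelled replicate 2. Without replicate 1, 3 members were called higher (Gata5, Foxc1 and Cdh11), in a fit that called 1.85% of all genes higher and 2.49% lower. That heart is the control-labelled one nearest the mutant-labelled hearts in these same genes, and none of the other 5 omissions called any member.

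The members were more even among mutant-labelled than among control-labelled hearts. The coefficient of variation, which is the SD as a share of the mean, was larger in the control-labelled group for all 8. Over the 8 genes its median was 27.3% with the control label and 7.90% with the mutant label. Over all tested genes the medians were 11.2% and 8.35%, and 62.5% of genes had the larger value in the control-labelled group. The control-labelled hearts took the same order, replicate 2 lowest and replicate 1 highest, in 7 members (17.6% of all tested genes had this order), and Tmem100 had replicate 3 lowest instead.

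**Figure D3:**
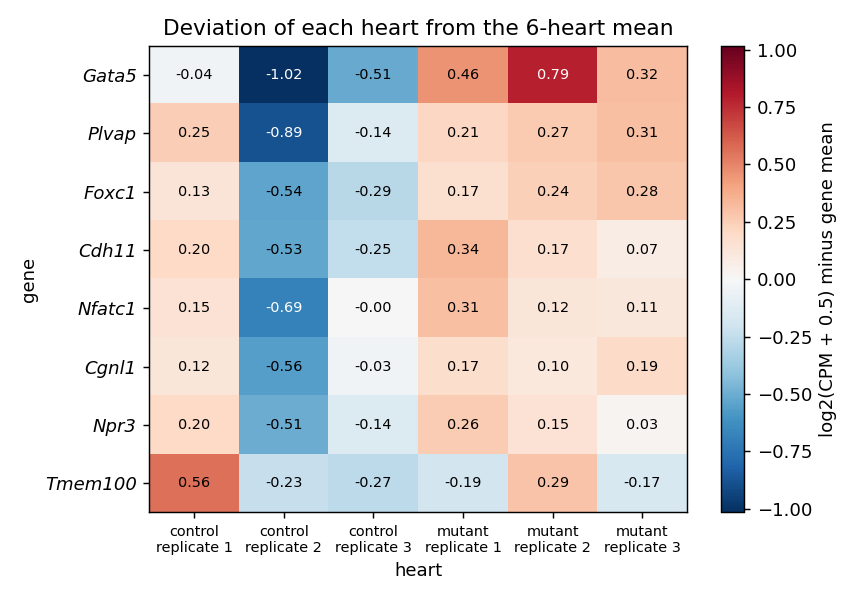
Deviation of each heart (columns) from the mean of the 6 hearts for each gene (rows), in log2(CPM + 0.5), with red above and blue below the mean and the value in each cell. Control-labelled replicate 2 is below the mean for all 8 genes, from -1.02 for Gata5 to -0.23 for Tmem100, and control-labelled replicate 1 is above it for all but Gata5, at -0.04.

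Between pairs of members, Pearson's r over the 6 hearts had a median of 0.90 in 28 pairs and was above 0.5 in 22. The lowest were with Tmem100, down to 0.33 with Nfatc1, and the highest was 0.99, between Plvap and Cgnl1. These describe 6 points that share libraries and group means. The 5 genes most like the members, by Pearson's r with the mean of the 8 after each was scaled to mean 0 and SD 1, out of 11771 genes with at least 5 CPM, were Lppr2 (r = 0.998), Map7 (0.997), Ephb3 (0.996), Slc39a6 (0.993) and Pde7b (0.993). Ephb3, an ephrin receptor, stood at 44.5, 28.3 and 36.3 CPM in control-labelled and at 46.1, 47.2 and 44.6 CPM in mutant-labelled hearts. None of the 5 passed an adjusted p of 0.05 with edgeR, and the log2 fold changes ran from 0.19 for Map7 to 0.39 for Pde7b.

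Levels can be set side by side between genes per length only, here as CPM per kb of the exons joined from GENCODE vM21. In control-labelled hearts the order of the means was Plvap (40.4), Cgnl1 (18.9), Npr3 (15.04), Cdh11 (14.4), Tmem100 (5.95), Foxc1 (4.51), Nfatc1 (4.14) and Gata5 (1.93 CPM per kb). Plvap lay above all others in every heart. Across hearts the control-labelled ranges of Cgnl1, Npr3 and Cdh11 overlapped one another, as did those of Tmem100, Foxc1 and Nfatc1. Within a heart, Cgnl1 was above Npr3 and Cdh11 in all 6, Npr3 was above Cdh11 in the 3 control-labelled hearts and in 0 of the 3 mutant-labelled hearts, Tmem100 was above Foxc1 in 4 of 6, and Foxc1 was above Nfatc1 in 5 of 6. In mutant-labelled hearts Gata5 was still the lowest, at 4.01 ± 0.72 CPM per kb (SD, n = 3), Cgnl1 at 22.2 to 23.6 CPM per kb was apart from Cdh11 at 17.0 to 20.4, and Foxc1 and Tmem100 were at 6.12 and 5.62 CPM per kb, within their spread.

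Because whole hearts mix cell types, each member was also taken relative to the mean log2(CPM + 0.5) of the 14 pan-endothelial genes of the same heart. For control-labelled replicates 1 to 3 that mean was 6.19, 5.97 and 6.38, and for mutant-labelled replicates 1 to 3 it was 6.16, 6.14 and 6.16, a difference of -0.03 (exact two-sided permutation test, p = 0.7). Relative to it, Gata5 was higher by 1.07, Plvap by 0.55, Foxc1 by 0.48, Cdh11 by 0.41, Nfatc1 by 0.39, Cgnl1 by 0.34 and Npr3 by 0.32 in mutant-labelled hearts, and Tmem100 differed by -0.02, all on the log2 scale. The groups did not overlap for Gata5, Foxc1, Nfatc1 and Cgnl1 (exact two-sided permutation test, p = 0.1 for each, the smallest possible) and overlapped for the other 4. On this scale 11.3% of all tested genes lay wholly higher and 6.21% wholly lower in mutant-labelled hearts. For Nfatc1 the separation was small, with control-labelled replicate 1 at -0.935 and mutant-labelled replicate 3 at -0.932. Libraries were also scaled in the edgeR fit so that this endothelial mean was equal. Gata5 then had a log2 fold change of 1.09 and was called (adjusted p = 0.0369 from edgeR), and no other member was called. That fit called 0.321% of genes higher. Both scalings allow for the share of endothelium only where the reads of a member come from endothelium. The cell source of the members was not tested.

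A further list of 15 genes known from endocardium, none of them members, had 8 genes higher and 7 lower, with a median log2 fold change of 0.01 (0.0057), and none passed an adjusted p of 0.05 with edgeR. In 4 of the 15 every mutant-labelled heart lay above every control-labelled heart (14.3% of all genes), and in 1 every one lay below (12.8% of all genes). The difference between this list and the members was not tested, and both were chosen with earlier results of these data known. At an unadjusted p under 0.05, Hapln1, Tal1 and Wnt4 were higher and Postn was lower. Hapln1, which encodes a link protein of the hyaluronan matrix, was at 36.0, 12.3 and 12.7 CPM in control-labelled and at 56.1, 49.1 and 40.5 CPM in mutant-labelled hearts, and its log2 fold change of 1.25 was above that of every member (adjusted p = 0.159 from edgeR and 0.148 from DESeq2). Postn, which encodes the matrix protein periostin, was at 600.6, 508.8 and 553.1 CPM and at 425.7, 387.0 and 418.2 CPM, with a log2 fold change of -0.43 (adjusted p = 0.0854 from edgeR and 0.00050 from DESeq2). Which cells of the heart this lower level of Postn belongs to was not tested. Wnt4, which encodes a secreted signal, was at 5.41, 1.98 and 3.33 CPM in control-labelled and at 6.65, 6.51 and 5.98 CPM in mutant-labelled hearts (log2 fold change 0.83, adjusted p = 0.204 from edgeR). Tal1, a transcription factor of blood and endocardium, was at 15.6, 10.5 and 13.1 CPM and at 16.5, 16.8 and 16.5 CPM (log2 fold change 0.34, adjusted p = 0.241 from edgeR). Emcn, which encodes the surface protein endomucin, was at 86.9, 60.2 and 70.6 CPM and at 75.2, 76.9 and 66.5 CPM, with a log2 fold change of 0.01 (0.0057). Nrg1, which encodes the signal from endocardium to trabeculae, stood between 1.09 and 2.18 CPM in all hearts, and its groups overlapped.

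**Figure D4:**
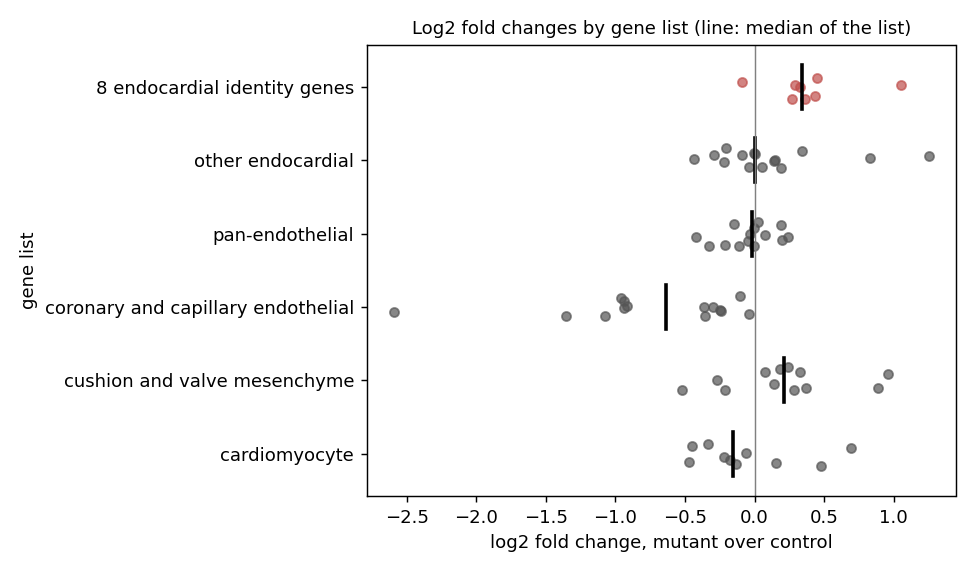
Log2 fold change of mutant-labelled over control-labelled hearts (x axis) for each tested gene of the 8 endocardial identity genes (red) and of 5 other lists (grey), with the median of each list as a black line and small vertical offsets for legibility. The median is 0.34 for the 8 genes, near 0 for other endocardial and pan-endothelial genes, and -0.64 for coronary and capillary endothelial genes, all 14 of which lie below 0. All lists were chosen with earlier results of these data known, so their contrast is a description only.

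The endothelial lists, chosen with earlier results of these data known, differed in their counts. Of 14 genes of coronary and capillary endothelium, 14 were lower, with a median log2 fold change of -0.64. At an unadjusted p under 0.05 from edgeR 7 of them were lower, where 9.98% of all genes were lower. DESeq2 called 6 of them lower, where it called 3.43% of all genes lower. Their sum for control-labelled replicates 1 to 3 was 1103, 1342 and 1369 CPM, and for mutant-labelled replicates 1 to 3 it was 979.8, 908.4 and 916.0 CPM. The pan-endothelial list had 5 genes higher and 9 lower, with a median of -0.02. Control-labelled replicate 1 was thus the control-labelled heart with the highest sum of the 8 members, at 721 CPM against 420 and 575 CPM, and with the lowest sums of coronary and of erythroid markers. The summed members were at 751, 717 and 701 CPM in mutant-labelled hearts.

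Markers of other cells are given beside the members, and no gene of these lists passed an adjusted p of 0.05 with edgeR. Cdh11 and Foxc1 are also genes of the cushion mesenchyme, whose list of 12 had 9 genes higher and 3 lower and a median log2 fold change of 0.21. Twist1 and Msx2, factors of that mesenchyme, were called higher by DESeq2 (adjusted p = 0.0064 and 0.012), and Prrx1 was called lower (adjusted p = 0.00020 from DESeq2). Over all genes DESeq2 called 2.67% higher and 3.43% lower, which also holds beside its calls below. The sum of this list ran from 1762 to 2625 CPM in control-labelled and from 1786 to 2417 CPM in mutant-labelled hearts. Collagens weigh heavily in it, with Col1a1 at 932 and Col3a1 at 1353 CPM in control-labelled replicate 3. The list's mean log2(CPM + 0.5) was 4.874, 4.58 and 4.71 in control-labelled and 5.03, 4.871 and 4.88 in mutant-labelled replicates 1 to 3. Of 7 epicardial genes 5 were higher and 2 lower, with Upk3b and Krt19 called higher by DESeq2 (adjusted p = 0.0011 and 0.019). The epicardial sum ran from 179.3 to 195.4 CPM in control-labelled and from 208.9 to 238.2 CPM in mutant-labelled hearts, without overlap. Of single genes, 14.3% lay wholly higher in mutant-labelled hearts. Of 10 cardiomyocyte genes 3 were higher and 7 lower, with a median of -0.15, and Myl7 and Myh6, which encode myosin chains, were called higher by DESeq2 (log2 fold change 0.69 and 0.48, adjusted p = 0.0069 and 0.038). Of 6 erythroid genes all were lower, and of 6 macrophage genes 3 were higher and 3 lower. The part of these cell types in the differences of the members, Gata5 included, was not tested.

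The pathways around single members were read from fixed lists. For Nfatc1, 12 genes of calcineurin and NFAT had 6 higher and 6 lower, none with an adjusted p under 0.05 from edgeR. Nfatc4, another NFAT factor, was at 12.7, 9.33 and 10.96 CPM in control-labelled and at 15.9, 16.9 and 15.9 CPM in mutant-labelled hearts (log2 fold change 0.56, adjusted p = 0.0931 from edgeR and 0.0060 from DESeq2). Nfatc2 was at 25.3, 22.6 and 24.4 and at 27.5, 27.2 and 28.8 CPM, also without overlap (14.3% of all genes lay wholly higher). Rcan1, a calcineurin inhibitor that NFAT factors induce, had a log2 fold change of 0.18 (adjusted p = 0.304 from edgeR), and the catalytic subunits Ppp3ca and Ppp3cb had 0.10 and -0.13.

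For Npr3, 8 of 9 genes of natriuretic peptide handling were tested, with 6 higher and 2 lower. The peptides Nppa and Nppb had log2 fold changes of 0.25 and 0.13, and their control-labelled hearts ran from 127.7 to 299.6 CPM and from 62.5 to 149.0 CPM, around all mutant-labelled hearts. The signalling receptors Npr1 and Npr2 had 0.00 (-0.00015) and 0.09. Mme, which encodes the peptidase neprilysin that degrades these peptides, was at 14.2, 8.65 and 9.44 CPM in control-labelled and at 20.0, 22.4 and 19.3 CPM in mutant-labelled hearts (log2 fold change 0.93, adjusted p = 0.0833 from edgeR and 0.00010 from DESeq2).

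For Tmem100, 11 of 12 genes of ALK1 and BMP signalling were tested, with 6 higher and 5 lower. The receptors Acvrl1 and Eng had log2 fold changes of -0.23 and -0.01 (-0.0069), and the ligand Bmp10 had 0.26, with overlap in each. Smad6, an inhibitor of BMP signals, was at 54.4, 43.8 and 50.2 CPM in control-labelled and at 60.7, 63.2 and 65.8 CPM in mutant-labelled hearts (log2 fold change 0.35, adjusted p = 0.1202 from edgeR and 0.030 from DESeq2). Smad9 had 0.43 (adjusted p = 0.199 from edgeR), and like Smad6 its groups did not overlap, where 14.3% of all genes lay wholly higher. Id1, Id2 and Id3 had -0.05, 0.24 and 0.03, with overlap in each.

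Beside the factors Gata5 and Foxc1, 9 of 10 partner genes were tested, with 6 higher and 3 lower. Foxc2, the close relative of Foxc1, was at 13.9, 5.62 and 9.20 CPM in control-labelled and at 14.2, 14.7 and 15.9 CPM in mutant-labelled hearts (log2 fold change 0.63, edgeR adjusted p = 0.254). The control-labelled hearts were in the same order as for Foxc1. Gata4 had a log2 fold change of 0.09. Gata6 went the other way, at 179.4, 213.7 and 199.6 CPM against 151.7, 153.2 and 177.3 CPM (log2 fold change -0.30, edgeR adjusted p = 0.165). Its groups did not overlap (12.8% of all genes lay wholly lower).

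Among cadherins and tight junction genes beside Cdh11 and Cgnl1, 10 of 12 symbols were matched and tested, with 5 higher and 5 lower. Cgn, which encodes cingulin, the close relative of Cgnl1, was low, at 2.02, 2.11 and 1.97 CPM in control-labelled and at 4.002, 2.28 and 3.79 CPM in mutant-labelled hearts (log2 fold change 0.72, adjusted p = 0.177 from edgeR). The endothelial cadherin Cdh5 and the muscle cadherin Cdh2 had log2 fold changes of -0.03 and 0.05, and Esam, an endothelial adhesion protein, had -0.33 (adjusted p = 0.113 from edgeR and 0.027 from DESeq2).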

How the data were processed

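Whole hearts of 3 control-labelled and 3 mutant-labelled embryos were compared. The authors mapped 76 bp paired-end reads with STAR 2.4.2a to GRCm38 with GENCODE vM6 and deposited raw counts per gene from summarizeOverlaps, without normalization. The deposited DESeq2 table supplied symbols only; its other columns hold the authors' own comparison (means, fold changes, p-values) and were not used. The overlap mode and strand setting of the counting are not given in the sources used here.

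These counts entered edgeR 4.0.16 under R 4.3.3 (filterByExpr, minimum count 10 and total 15; TMM; quasi-likelihood test, condition as the only term; Benjamini-Hochberg adjustment over 17125 genes; threshold 0.05). DESeq2 1.42.0 was an alternative. The standard error is the log2 fold change divided by the root of F. Named genes are the 8 members, genes of the fixed lists and the 5 most like the members. Members and lists were chosen with earlier results of these data known. Alternatives were RLE scaling, 2 other filters, a replicate block, pan-endothelial scaling, leaving out each heart and other pseudocounts. On simulated counts for this comparison, 77.5% of 200 genes changed 2-fold and 30% of 200 changed 1.5-fold were recovered, among 16879 and 16882 genes tested. Unchanged genes called there numbered 14 and 4. Each gene was drawn independently, with no shift shared between the genes of a heart. These shares therefore need not hold for the real hearts, where the members moved together. Library pairs differed beyond counting noise (chi-square per degree of freedom at least 19.0). The study states that mutants came from several litters and were set against litter mates, but the labels do not tie these hearts to litters. The p-values treat the hearts as independent samples, which the labels cannot establish. Coordinates and exon lengths are from GENCODE vM21 on GRCm38, matched by gene identifier for all 8 members. Sequences are from RefSeq on GRCm38.p6.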

Additional observations from a re-analysis of the deposited data

How the results depend on the processing

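The number of genes called at an adjusted p under 0.05, 0 with edgeR as run (3333 at an unadjusted p under 0.05), was 1013 with DESeq2, 603 with every gene with at least 1 count, 138 with pan-endothelial scaling and 14 with the replicate block, and ran from 0 to 751 when single hearts were left out, the highest without control-labelled replicate 1 and 3 without control-labelled replicate 2. It was 0 with RLE scaling and with a mean of at least 1 CPM. The median log2 fold change of the 8 members stayed positive in all alternatives, from 0.16 without control-labelled replicate 2 to 0.54 without control-labelled replicate 1. The sign of 7 members held in all 12 alternatives. Tmem100 ran from -0.27 without mutant-labelled replicate 2 to 0.26 without control-labelled replicate 1, and was 0.0052 without mutant-labelled replicate 1. Relative to the pan-endothelial genes it ran from -0.26 to 0.25 as single hearts were left out, and was 0.069 without mutant-labelled replicate 1 and 0.057 without mutant-labelled replicate 3. The cause was not tested. Deviations of same-numbered hearts from their group means correlated at 0.02, -0.09 and -0.07 over genes. The largest correlation of any pairing was 0.13, between control-labelled replicate 2 and mutant-labelled replicate 3. Such correlations cannot show whether hearts shared a litter. The replicate block, with a median of 0.37 for the members, called no member. With 3 hearts a group, an exact permutation test of a single gene cannot go below p = 0.1. Counts were lowest for Gata5 and Tmem100, and the effect of depth was not tested.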
